A study of Homo sapiens with 12 samples.

Results

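The genes for the proteins of the cytosolic ribosome were followed across 12 RNA-seq libraries of HT1080, a human fibrosarcoma cell line. They were taken from the count table by name: protein-coding rows called RPL or RPS with a number and at most a closing A or X, the RPLP genes, and RPSA. This gave 77 of the 36502 genes in the table, 31 of the small subunit, 43 of the large subunit and 3 of the stalk (RPLP0, RPLP1 and RPLP2). After a filter on low counts 76 of them were tested among 17262 genes.

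The cytosolic ribosome is built from ribosomal RNA and one copy of nearly every ribosomal protein, so cells make these proteins in matched amounts. The small subunit decodes the messenger RNA, the large subunit joins amino acids, and the stalk of the large subunit recruits translation factors. Their messenger RNAs are among the most abundant of a dividing cell, and most begin with a run of pyrimidines, the terminal oligopyrimidine (TOP) start, through which mTOR and LARP1 control their translation and stability.

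Both clones carry a system that marks DNA touching the lamina: a tracer protein that binds adenine-methylated DNA, and Dam-LaminB1, an adenine methyltransferase fused to lamin B1. In the GFP clone the tracer is m6A-Tracer, and in the VP16 clone it is m6A-Tracer-VP16, with a transcriptional activation domain. Doxycycline keeps the tracer off, and Shield1 stabilises Dam-LaminB1. The uninduced groups (m6ATracer-GFP-/DamLaminB1- and m6ATracer-VP16-/DamLaminB1-) had 50 ng/ml doxycycline for 4 days. The tracer groups (m6ATracer-GFP+/DamLaminB1- and m6ATracer-VP16+/DamLaminB1-) had it for 3 days and were then kept 24 h without it. The tracer_Dam groups (m6ATracer-GFP+/DamLaminB1+ and m6ATracer-VP16+/DamLaminB1+) had the same schedule with 500 nM Shield1 in the last 24 h. Each of these 6 groups had 2 libraries. Each tracer was present in 1 clone, so clone and construct cannot be told apart, and neither can the tracer and the loss of doxycycline. The labels name no promoter for either construct. The design text calls the second library of a group a biological replicate and does not say whether it came from a separate culture, so p-values measure only how far 2 such libraries differ, and that spread may be technical.

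Total counts ranged from 18774905 to 24827396. The library titles reuse 6 index sequences, which gives 2 index sets with 1 library of each group in each. The first principal component of all genes set apart the GFP_tracer and GFP_tracer_Dam libraries of index set 1, at -78.2 and -87.0, while the other 10 lay between -16.2 and 41.0. The 8 fibrosarcoma and mesenchymal markers summed to 6862 to 9135 CPM (counts divided by library size and scaled with TMM factors), blood markers to 0.223 to 0.589, epithelial markers to 0.182 to 11.7 and neural markers to 7.45 to 15.9. The highest epithelial value came from ESRP1 in those 2 GFP libraries, at 6.77 and 10.7 CPM.

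The starts below belong to the genes on which the comparisons turn, and to RPS26, which had no pyrimidine run from an annotated first base. They are RefSeq sequences on GRCh38.p14, 40 bases before the annotated start and 20 from it. Where a gene had several annotated starts, a start with the run was printed if there was any. Capitals mark the unbroken run of C and T from the first transcribed base, where that base starts a run of at least 5. Among RPL34 (chr4:108620536-108620595, plus strand), RPS3A (chr4:151099588-151099647, plus), RPS3 (chr11:75399478-75399537, plus) and RPS13 (chr11:17077648-17077707, minus), all lower in the VP16 clone, the run spanned 6 to 11 bases.
RPL34: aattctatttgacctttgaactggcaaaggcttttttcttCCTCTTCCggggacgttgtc
RPS3A: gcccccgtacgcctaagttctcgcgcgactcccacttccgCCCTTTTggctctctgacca
RPS3: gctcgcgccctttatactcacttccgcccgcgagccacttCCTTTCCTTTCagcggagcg
RPS13: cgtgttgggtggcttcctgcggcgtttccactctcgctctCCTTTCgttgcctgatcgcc
RPL41 (chr12:56116593-56116652, plus) and RPLP0 (chr12:120201092-120201151, minus) were higher in the VP16 clone when the index sets were modelled, and RPS19 (chr19:41860215-41860274, plus), RPL13A (chr19:49487568-49487627, plus) and RPS12 (chr6:132814529-132814588, plus) were lower in index set 2.
RPL41: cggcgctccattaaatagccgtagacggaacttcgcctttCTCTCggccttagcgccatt
RPLP0: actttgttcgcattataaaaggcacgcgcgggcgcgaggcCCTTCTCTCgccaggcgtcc
RPS19: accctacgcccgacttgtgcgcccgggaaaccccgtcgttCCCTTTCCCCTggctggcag
RPL13A: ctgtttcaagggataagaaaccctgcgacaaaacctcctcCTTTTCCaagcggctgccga
RPS12: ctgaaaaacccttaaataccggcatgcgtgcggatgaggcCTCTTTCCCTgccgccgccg
RPS26 (chr12:56041878-56041937, plus) showed no run from its annotated first base, though a stretch of pyrimidines begins shortly after it.
RPS26: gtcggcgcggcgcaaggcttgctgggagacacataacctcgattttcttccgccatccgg

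The start table held 62 of the 77 genes by symbol. Of these, 46 (74.2%) had at least 1 annotated start with a run of 5 or more pyrimidines on the coding strand, against 1404 of 27305 genes (5.14%). Counted by start, the run was present at 46 of 77 starts of these genes and at 4.07% of all 35116 starts. The longest run was 19 bases. The 16 matched genes without a run were RPL10A, RPL15, RPL17, RPL19, RPL27, RPL3, RPL32, RPL4, RPL6, RPL9, RPS15, RPS26, RPS28, RPS29, RPS4X and RPS7. A match describes letters at an annotated start and does not show where transcription began in these cells.

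The 77 genes took 3.17% to 3.58% of all counts, with a median of 3.35%. Per kilobase of coding sequence, the highest levels belonged to RPS21 at 2634 CPM, RPL8 at 2083, RPS19 at 2080, RPLP1 at 2058 and RPS6, the target of S6 kinase, at 1887. The 5 lowest were RPS28 at 23.1, RPL21 at 23.5, RPS26 at 26.4, RPL7 at 37.6 and RPL36A at 39.1. Levels measured by read counts thus spread over a wide range, although the ribosome holds nearly all of these proteins in equal numbers. Genes with more named pseudogenes had lower levels (Spearman's rho -0.47, Pearson's r -0.44 across 76 genes, which are not independent replicates). Reads that match both a gene and its processed copies can be lost or split at counting, and their part in these levels was not tested. The 321 ribosomal protein pseudogene rows in the table together held 0.755% to 1.01% of the counts of genes and pseudogenes combined. RPS26 was the extreme among the low genes, where 13.01% of the joint counts lay in its pseudogene rows. In addition, 29 of the genes overlapped another row of the table and 17 held a snoRNA row, so that their counts may include or lack neighbouring reads.

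The shifts of the ribosomal protein genes between conditions were small. The share of counts was 3.51% ± 0.0629 (SD, n = 2) in GFP_uninduced, 3.37% ± 0.0905 in GFP_tracer and 3.33% ± 0.117 in GFP_tracer_Dam. In the VP16 clone it was 3.42% ± 0.226, 3.32% ± 0.105 and 3.23% ± 0.0841 in the same order. The mean share was thus lowest with Shield1 in both clones. Both GFP_uninduced libraries lay above both GFP_tracer libraries, and the other neighbouring conditions overlapped. For each library, the median over the 76 genes of the log2 deviation from the gene's mean was also taken. In index set 1 it was 0.070, -0.016 and -0.015 for GFP_uninduced, GFP_tracer and GFP_tracer_Dam, and 0.14, 0.041 and -0.027 for the VP16 groups. In index set 2 the values were 0.012, -0.044 and -0.050 for the GFP groups and 0.018, 0.0025 and -0.046 for the VP16 groups. The VP16_uninduced library of index set 1 stood highest. The pooled SD of these medians between replicates was 0.042.

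**Figure D1:**
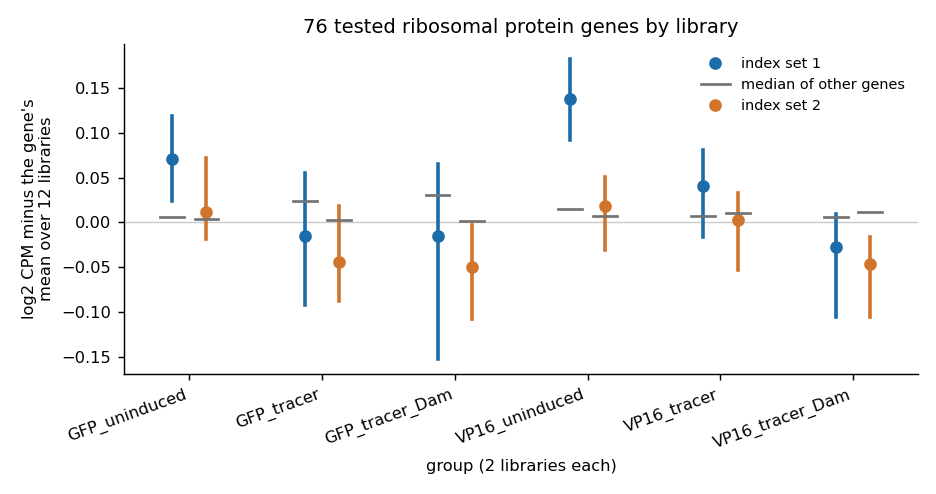
Median log2 deviation of the 76 tested ribosomal protein genes in each library (points), with bars from the first to the third quartile over genes and grey lines for the median of all other tested genes. The uninduced library lies above both induced libraries of its clone and index set in all 4 series, and VP16_uninduced of index set 1 is the highest at 0.14.

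In the VP16 clone, all 76 tested genes were lower in VP16_tracer_Dam than in VP16_uninduced. The median log2 difference was -0.11 (lowest -0.33 for RPL36A, highest -0.042 for RPL15), against 0.0035 over all 17262 genes and -0.039 over the 2422 other genes at 100 CPM or more. The median was -0.11 for the 30 tested genes of the small subunit and also for the 46 of the large subunit and stalk. No single gene passed the test: edgeR's quasi-likelihood test called 0 of 76 (0% of all genes were called), with 0 at an unadjusted p under 0.05, and DESeq2 also called 0. With the index set as a block edgeR again called 0, with 3 at an unadjusted p under 0.05. The median and its sign held under each scaling tried (-0.11 to -0.085, with 0 of 76 positive). Within index set 1 the median was -0.16 with 76 genes negative, and within index set 2 it was -0.055 with 69 negative. Without the index set 1 library of VP16_uninduced the median came to -0.049, and without that of index set 2 to -0.18.

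A fit of the 6 VP16 libraries alone, blocked by index set, gave another count. This fit was chosen after seeing the data and leaves 2 residual degrees of freedom. Of all 16139 genes it tested, 4.17% were called lower in VP16_tracer_Dam than in VP16_uninduced and 5.58% higher. Among the 76 ribosomal protein genes it called 13 lower and 0 higher. Of the small subunit these were RPS29, RPS7, RPS27A, RPS2 and RPS16, and of the large subunit RPL27A, RPL14, RPL10, RPL23A, RPL10A, RPL9, RPL18 and RPL37. RPS29, a small zinc-binding protein of the small subunit, was at 251 and 205 CPM in VP16_uninduced (index sets 1 and 2), 225 and 203 in VP16_tracer and 206 and 190 in VP16_tracer_Dam. Both VP16_tracer_Dam values were below the VP16_uninduced value of their own set, and one lay above the uninduced value of index set 2. Its log2 difference in this fit was -0.19 ± 0.0451 (SE), with an adjusted p of 0.00798. RPS7, another small subunit protein, was at 199.6 and 192 CPM in VP16_uninduced, 174 and 179 in VP16_tracer and 164 and 177 in VP16_tracer_Dam. Its groups did not overlap between VP16_uninduced and VP16_tracer_Dam, and the difference was -0.19 ± 0.0451 with an adjusted p of 0.00813. RPL14 of the large subunit was at 294 and 291 CPM, 262 and 272, and 246 and 270.1 in the same order, and its difference was -0.17 ± 0.0429 with an adjusted p of 0.011. These calls were absent when all 12 libraries shared the estimate of the spread.

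The lower medians in the VP16 clone came in both steps. VP16_tracer minus VP16_uninduced had a median of -0.055 with 74 of 76 genes negative, and VP16_tracer_Dam minus VP16_tracer had a median of -0.051, also with 74 negative. In index set 1, 72 of the 76 genes (94.7%) were ordered uninduced above tracer above tracer_Dam, against 24.8% of other genes. In index set 2 the order held for 45 (59.2%) against 19.6%. EdgeR called 0 genes in either step (0% of all genes), with 0 of the 76 at an unadjusted p under 0.05, and DESeq2 called 0. The first step rested on 1 library: it came to 0.0092 without VP16_uninduced of index set 1, and was -0.10 within index set 1 and -0.014 within index set 2. With 1 library left, the spread of the other groups is assumed for it.

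**Figure D2:**
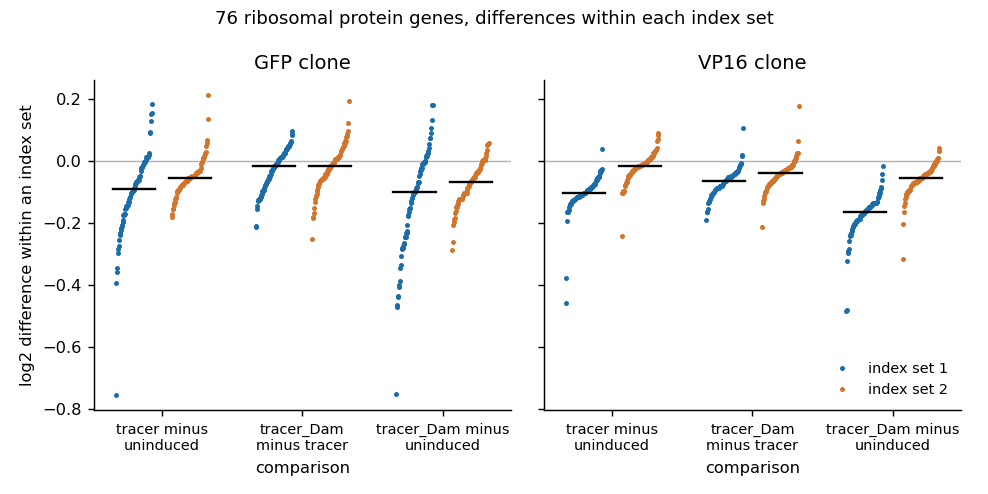
Log2 differences between conditions within each index set for the 76 tested genes (points, sorted), with black lines at the medians, for the GFP clone (left) and the VP16 clone (right). Nearly all VP16 points of index set 1 lie below 0, and the GFP points of index set 1 spread more widely than those of index set 2, down to -0.76 for RPS26.

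In the GFP clone the ribosomal protein genes were lower on the median too, and less evenly. GFP_tracer minus GFP_uninduced had a median of -0.068 with 67 of 76 genes negative (all genes 0.0067). GFP_tracer_Dam minus GFP_tracer had a median of -0.0185 with 50 negative, and GFP_tracer_Dam minus GFP_uninduced one of -0.092 with 65 negative. EdgeR called 0 members in the 3 comparisons (0% of all genes in each), with 0 at an unadjusted p under 0.05 in each, and DESeq2 called 0. With the block edgeR called 0, and 1, 0 and 3 genes had an unadjusted p under 0.05. The order uninduced above tracer above tracer_Dam held for 38 genes (50%) in index set 1 and 37 (48.7%) in index set 2, against 26.9% and 16.3% of other genes.

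The 2 GFP libraries of index set 1 that stood apart in all genes also held the widest departures here. The interquartile range of GFP_tracer minus GFP_uninduced was 0.158 for index set 1 against 0.0486 for set 2, and 14 genes lay below -0.2 in index set 1 against 0 in index set 2. RPS26, a protein of the messenger RNA exit channel, was at 9.59, 5.64 and 5.66 CPM in GFP_uninduced, GFP_tracer and GFP_tracer_Dam of index set 1. In index set 2 it was at 8.32, 8.26 and 8.64. RPL15 was at 455, 359 and 344 CPM in index set 1, whereas set 2 gave 463, 441 and 459. RPL23A, which lies at the exit of the peptide tunnel, was at 160.1, 122 and 116 CPM in index set 1 and at 143, 140.1 and 134 in index set 2. For these 3 genes only the induced libraries of index set 1 were low. None of the 3 passed the test, and adjusted p was 0.999 for each in GFP_tracer minus GFP_uninduced. RPL10A and RPL13A went the other way in index set 1: RPL13A was at 759, 845 and 818 CPM there, and at 695, 678 and 648 in index set 2.

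A pair of retained paralogues, which the naming rule leaves out, also stood apart in the same 2 libraries, RPL36AL low and RPL22L1 high. RPL36AL, a near copy of RPL36A, was at 128 CPM in GFP_uninduced of index set 1 and at 54.2 and 52.4 in GFP_tracer and GFP_tracer_Dam of that set. In index set 2 it was at 119, 115 and 114 CPM. RPL22L1, the paralogue of RPL22, was at 165, 265 and 265 CPM in index set 1 and at 153, 148 and 140.3 in index set 2. ASNS, a target of the integrated stress response, was at 56.3, 341 and 420.4 CPM in index set 1 and at 75.8, 67.0 and 69.8 in index set 2, and MYC at 64.0, 222 and 158 against 71.2, 80.6 and 71.0. The part of the stress genes in the departures was not tested.

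Other genes of the protein synthesis machinery are given for comparison, from lists drawn up with earlier results known. In VP16_tracer_Dam minus VP16_uninduced, all 29 tested ribosome biogenesis factors were negative (median -0.18), as were all 21 translation factors and other TOP mRNAs (median -0.12). Of 73 mitochondrial ribosomal proteins 63 were negative (median -0.092), and of 21 genes of RNA polymerase I and its upstream regulators 15 (median -0.072). None of these genes was called (0% of all genes). In GFP_tracer_Dam minus GFP_uninduced 18 of 29 biogenesis factors were negative (median -0.095), and 18 of 21 translation factors (median -0.087). Of 73 mitochondrial ribosomal proteins 60 were negative (median -0.15), and again none of these genes was called. These GFP medians include the GFP_tracer_Dam library of index set 1 that stood apart, and its part in them was not tested. From GFP_uninduced to GFP_tracer_Dam, NPM1 went from 936 to 703 CPM in index set 1 and from 886 to 934 in index set 2. RRP12 went from 203 to 303 CPM in index set 1 and from 166 to 168 in index set 2. Matched genes with the pyrimidine run had a median of -0.10 in VP16_tracer_Dam minus VP16_uninduced (46 genes) and those without it one of -0.12 (16 genes).

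Whether the clones responded differently was tested as an interaction. The induction response differed by a median of 0.014 (VP16 minus GFP) and the Shield1 response by -0.024. EdgeR called 0 genes in either (0% of all genes), with 0 of the 76 at an unadjusted p under 0.05 with or without the block, and DESeq2 called 0. The smallest adjusted p among the 76 genes was 1 for both terms without the block, and 0.988 and 1 with it.

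The largest differences among ribosomal protein genes lay between the clones, over all 3 conditions. In all, 4 genes passed the test, each lower in the VP16 clone: RPS3A, RPS3 and RPS13 of the small subunit and RPL34 of the large subunit. This is 4 of 76 lower and 0 higher, where 5.01% of all genes were called lower, 2.62% higher and 7.64% in either direction. The share of 4 in 76 is thus near the background. DESeq2 called 11 lower and 2 higher, among 2201 genes that it called in all, where edgeR called 1318. RPL34 (ENSG00000109475, GRCh37 chr4:109541722-109551568) was at 267, 263 and 271 CPM in GFP_uninduced, GFP_tracer and GFP_tracer_Dam of index set 1 and at 275, 266 and 253 in index set 2. In the VP16 clone it was at 209, 197 and 191 CPM in index set 1 and at 190.1, 195 and 192 in index set 2. All 6 VP16 libraries were below all 6 GFP libraries, with a log2 difference of -0.44 ± 0.0574 (SE, adjusted p = 0.00374). RPS3A (ENSG00000145425, GRCh37 chr4:152020725-152025804) ranged from 68.2 to 72.8 CPM in the GFP clone (median 72.2) and from 49.7 to 56.6 in the VP16 clone (median 53.8). The clones did not overlap, and the difference was -0.41 ± 0.0629 (adjusted p = 0.00737).

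RPS3 (ENSG00000149273, GRCh37 chr11:75110530-75133324), a protein of the messenger RNA entry channel that also acts in DNA repair, ranged from 964 to 1120 CPM in the GFP clone (median 1032) and from 777 to 893 in the VP16 clone (median 817). Again no VP16 library reached the GFP range, and the difference was -0.33 ± 0.0565 (adjusted p = 0.0113). RPS13 (ENSG00000110700, GRCh37 chr11:17095936-17099334) ranged from 340.5 to 372 CPM (median 349) and from 272 to 322 (median 285), with a difference of -0.28 ± 0.0634 (adjusted p = 0.0346). RPL34 and RPS3A passed with any single library left out, RPS3 in 7 of 12 such fits and RPS13 in 2 of 12. Of all 76 genes, 5 were lower in every VP16 library than in any GFP library (these 4 and RPLP2), where 6.08% of all genes were, and 2 were higher (RPL41 and RPL6), where 4.59% were. These shares are near or below the background too.

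With the index set as a block, 10 genes were lower in the VP16 clone and 5 higher, where 11.9% and 9.03% of all genes were called. RPS25 of the small subunit, RPL27A, RPL4 and RPL35A of the large subunit and the stalk proteins RPLP1 and RPLP2 joined the 4 lower ones. RPLP2 ranged from 553 to 614 CPM in the GFP clone (median 589) and from 472 to 538 in the VP16 clone (median 489), a difference of -0.24 ± 0.0396 with the block (adjusted p = 0.00511). RPLP1 ranged from 689 to 817 CPM (median 759.7) and from 605 to 713 (median 641), so the clones overlapped, with a difference of -0.22 ± 0.0395 (adjusted p = 0.00728). The third stalk gene, RPLP0, went the other way, from 661 to 716 CPM in the GFP clone (median 689) to 716 to 818 in the VP16 clone (median 774), a difference of 0.16 ± 0.04 (adjusted p = 0.0274). The clones touched in 1 place, where the lowest VP16 library was level with the highest GFP library. The acidic stalk proteins RPLP1 and RPLP2 are held on the ribosome by RPLP0. RPL41, a very short large subunit protein, ranged from 114 to 122 CPM and from 130.4 to 144 (median 116 and 134), a difference of 0.20 ± 0.0456 (adjusted p = 0.0174). RPL6, RPS20 and RPS26 were the other 3 higher genes. Leaving out single libraries with the block moved the count between 7 and 21, while the calls over all genes in those fits ran from 1876 to 5482.

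The differences between clones mostly followed the chromosomes on which the genes lie, a pattern looked at after the calls were seen. RPL34 and RPS3A are on chromosome 4, RPS3, RPS13, RPL27A, RPS25 and RPLP2 on chromosome 11, RPLP1 and RPL4 on chromosome 15 and RPL35A on chromosome 3. Of the 5 higher genes, RPS26, RPL41, RPL6 and RPLP0 are on chromosome 12, and RPS20 is on chromosome 8. Other tested genes differed in the same direction there. Their median was -0.33 on chromosome 4 (618 genes, 86.6% negative), -0.32 on chromosome 11 (971 genes) and -0.24 on chromosome 15 (595 genes). It was -0.12 on chromosome 3 (965 genes), 0.16 on chromosome 12 (921 genes) and 0.0455 on chromosome 8 (620 genes). On chromosome 4 this median was between -0.36 and -0.29 in each of the 6 pairs of libraries, so it was present in every condition and index set. The 10 tested ribosomal protein genes on chromosomes 4, 11 and 15 had a median of -0.27 with 0 positive, and the 66 elsewhere one of 0.053 with 49 positive. For the other genes the medians were -0.30 on those 3 chromosomes and 0.034 elsewhere. On chromosome 3 the 7 tested ribosomal protein genes did not follow as a set. Their median was 0.040, from -0.17 for RPL35A to 0.12 for RPL15. Across the 76 genes, the clone difference of a gene and the median of the genes within 10 Mb had a Pearson's r of 0.80 and a Spearman's rho of 0.61, where neighbours share a chromosome. DNA copy number was not analysed here, and its part in these differences was not tested.

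**Figure D3:**
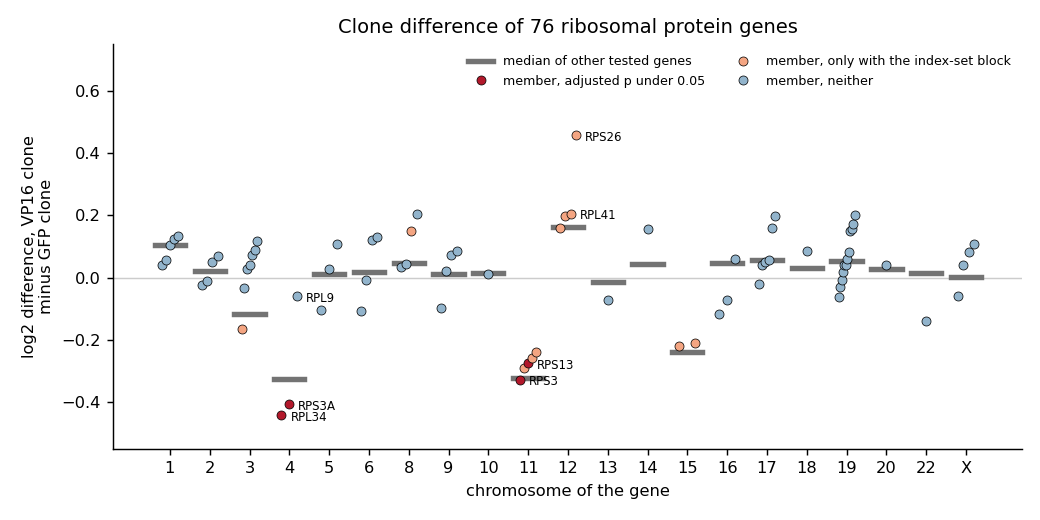
Log2 difference between the clones (VP16 minus GFP) for the 76 tested ribosomal protein genes (points) by chromosome, with grey bars at the median of the other tested genes. Genes on chromosomes 4, 11 and 15 lie below 0 with their neighbours and those on chromosome 12 above, while RPL9 and RPS26 stand off from the bar of their chromosome.

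The genes farthest from the median of their neighbours were RPS26 (0.31 above it), RPL9 (0.26 above), RPS14 (0.19), RPL24 (0.19) and RPL15 (0.17). RPS14, RPL24 and RPL15 each differed downward in 2 pairs of the same condition and index set and upward in 4. The GFP libraries of index set 1 that stood apart had the lowest RPS14 (448 and 414 CPM) and the lowest RPL15 (359 and 344). RPS26 and RPL9 are described here, chosen after the values were seen. RPL9 is on chromosome 4 (GRCh37 chr4:39455744-39460568), where the 56 genes within 10 Mb had a median of -0.32, yet its own difference was -0.060. It ranged from 63.1 to 73.6 CPM in the GFP clone (median 67.3) and from 60.1 to 73.8 in the VP16 clone (median 65.2), and the clones overlapped over most of that range. RPS26 exceeded its neighbours, with a difference of 0.46 ± 0.145 against a neighbour median of 0.15 (adjusted p = 0.0966). With the block it was 0.46 ± 0.129 (adjusted p = 0.0379). It ranged from 5.64 to 9.59 CPM in the GFP clone (median 8.29) and from 9.39 to 11.7 in the VP16 clone (median 10.6), and the GFP low was set by the 2 libraries of index set 1 that stood apart. Without those 2 libraries, a setting chosen after seeing the data, the difference with the block was 0.27 (adjusted p = 0.0353). Within pairs of the same condition and index set its difference ranged from 0.12 to 0.89. Over the 12 libraries RPS26 also had the largest SD of its deviation from the median gene, 0.323. RPL34 with 0.248, RPS3A with 0.237 and RPS3 with 0.194 followed, and RPL27A, RPS25, RPS13, RPS28, RPL7 and RPLP2 completed the first 10.

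**Figure D4:**
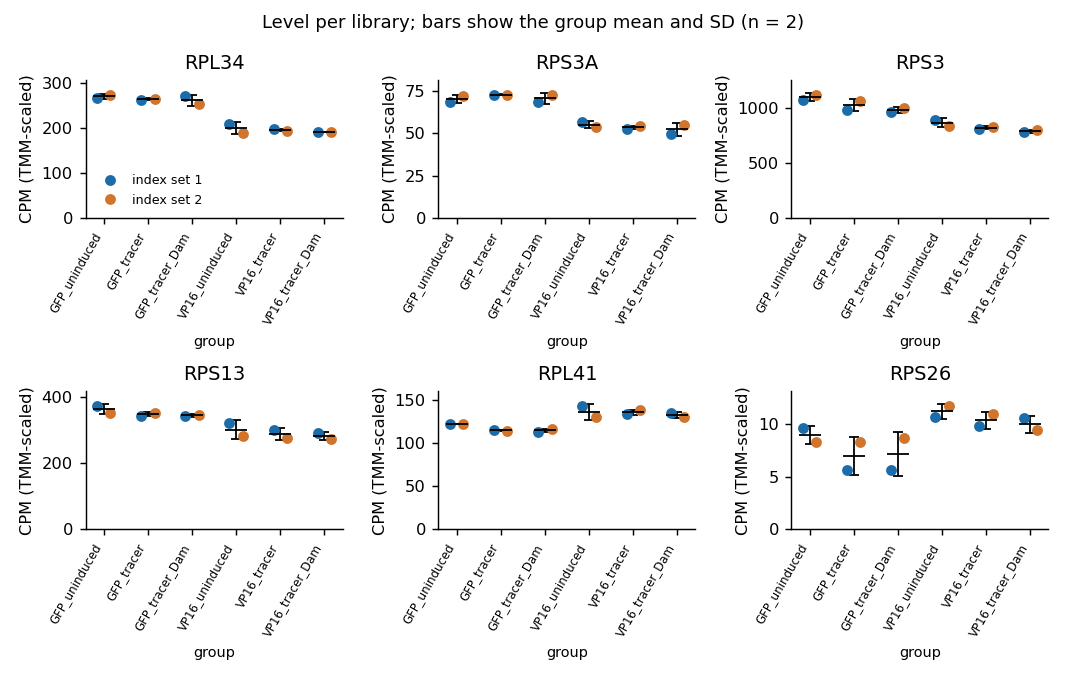
CPM of 6 ribosomal protein genes in each library by group (points, coloured by index set), with the group mean and SD (n = 2). RPL34, RPS3A, RPS3 and RPS13 are lower in all VP16 libraries and RPL41 is higher, and RPS26 is lowest in the induced GFP libraries of index set 1, at 5.64 and 5.66 CPM.

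In the uninduced cells alone, where the tracer was off in both clones, edgeR called 0 of 76 genes (0.278% of all genes in either direction, 0.0753% higher), with 4 at an unadjusted p under 0.05, and DESeq2 called 2. The block called 1 gene lower, RPL34, at -0.44 with an adjusted p of 0.0321, where 1.42% of all genes were called lower, 0.475% higher and 1.89% in either direction. That call was lost with any of the 4 libraries left out, with adjusted p from 0.106 to 0.361. The median over the 76 genes was 0.037 with 51 positive, turned to -0.0060 with 37 positive when libraries were scaled by total counts, and cannot be given a direction.

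Other genes of the machinery on these chromosomes differed between the clones as well. Of the biogenesis factors, GAR1 on chromosome 4 (-0.46 ± 0.0635, adjusted p = 0.00479) and NOP10 on chromosome 15 (-0.49 ± 0.0928, adjusted p = 0.0161) were lower in the VP16 clone. Both belong to the box H/ACA particles that guide pseudouridylation. NOP2, an rRNA methyltransferase encoded on chromosome 12, was higher (0.28 ± 0.0589, adjusted p = 0.0247). The list had 3 lower and 1 higher of 29, where 5.01% of all genes were called lower and 2.62% higher. MRPL1 on chromosome 4 (-0.59 ± 0.0743) and MRPL23 and MRPL17 on chromosome 11 (-0.43 ± 0.0655 and -0.31 ± 0.0648) were the 3 of 73 mitochondrial ribosomal proteins called, all lower. That share is near the one over all genes. EIF3F, a subunit of initiation factor eIF3 encoded on chromosome 11, was lower (-0.39 ± 0.0658, adjusted p = 0.0109), and NAP1L1 on chromosome 12 was higher (0.25 ± 0.0586, adjusted p = 0.0396). RPL22L1, on chromosome 3, was the only one of 8 tested paralogues called without the block (-0.88 ± 0.192, adjusted p = 0.03). That difference includes 265 and 265 CPM in the 2 GFP libraries that stood apart. The other GFP libraries had 140.3 to 165 CPM and the VP16 libraries 91.0 to 119. With the block 3 of the 8 paralogues were called lower. These included FAU, which encodes a small subunit protein fused to a ubiquitin-like one and lies on chromosome 11 (adjusted p = 0.0255 with the block), and RPS27L, a paralogue of RPS27 (-0.29 ± 0.0822, adjusted p = 0.0415 with the block). With the block the mitochondrial ribosomal proteins had 8 lower and 1 higher of 73, and the translation factors 2 lower and 3 higher of 21. Over all genes 11.9% were called lower and 9.03% higher with the block. The helicase EIF4A2 was among the lower translation factors (-0.31 ± 0.0565, adjusted p = 0.0074 with the block).

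Between the index sets, ribosomal protein genes were lower in set 2 where they differed. Of 76 genes 11 were called lower and 0 higher, where 15.6% of all genes were called lower and 12.6% higher, so the share of 11 in 76 is near the background. DESeq2 called 12 lower. Among them were RPS19, RPS12, RPS27A, RPS9, RPS16 and RPS21 of the small subunit, RPL13A, RPL13 and RPL28 of the large subunit, and RPLP1 of the stalk. RPS19, a protein of the small subunit mutated in Diamond-Blackfan anaemia, ranged from 934 to 1030 CPM in index set 1 (median 978) and from 807 to 868 in index set 2 (median 831). The sets did not overlap, and the difference was -0.23 ± 0.0408 (adjusted p = 0.00562). RPL13A ranged from 726 to 845 CPM (median 778) and from 648 to 695 (median 677), a difference of -0.21 ± 0.0482 (adjusted p = 0.0147). RPS12 ranged from 444 to 539.5 CPM (median 467) and from 396 to 440.4 (median 425), a difference of -0.19 ± 0.0429 (adjusted p = 0.0163). RPS27A, made as a fusion with ubiquitin, was the fourth gene without overlap, at 196 to 226 CPM against 167 to 193. Thus 4 genes were lower without overlap, where 7.35% of all genes were, and 0 were higher, where 7.22% were. With any single library left out 1 to 5 were called, among 3327 to 3995 genes called in all, against 4869 with all 12 libraries. Without both GFP libraries that stood apart 19 were called, among 6947 genes.

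Base composition and chromosome moved with the index set. The median coding GC content was 57.6% in the 11 called genes and 50.6% in the others. On chromosome 19 lay 6 of the 11, where 12 of the genes were tested and the other 1049 genes had a median of -0.13. Among other genes the median difference went from 0.086 below 45% GC to -0.088 at 60% and above, and for ribosomal protein genes from -0.011 to -0.13. Pearson's r between coding GC and the index set difference was -0.23 over the 76 genes and -0.17 over 13263 other genes, as a description across genes of the same libraries. The part of GC content in these calls was not tested.

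**Figure D5:**
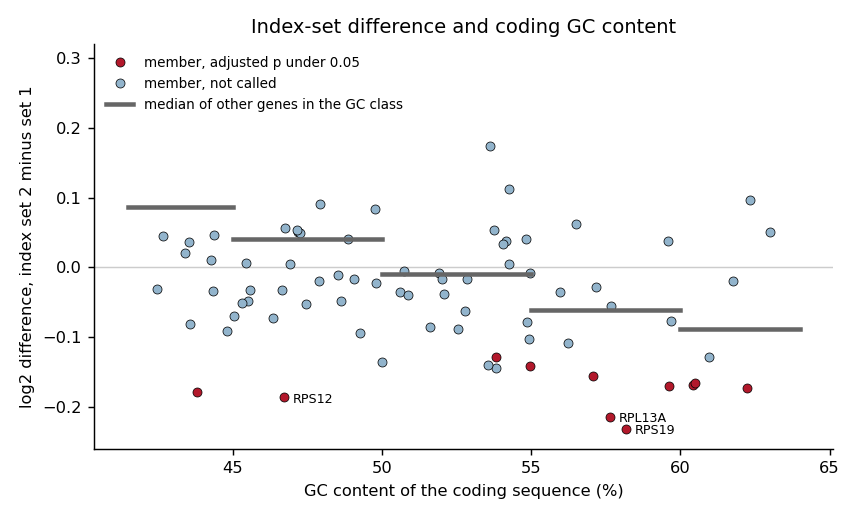
Log2 difference between the index sets (set 2 minus set 1) against the GC content of the coding sequence for the tested ribosomal protein genes, with grey lines at the median of other genes in each of 5 GC classes. The 11 called genes lie below -0.12, and 9 of them are above 50% GC.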

How the data were processed

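RNA abundance was measured in 12 libraries. Per the labels' protocols, RNA was isolated with Trizol and prepared with an Illumina TruSeq RNA kit. The submitters' processing notes list TopHat 1.4.0, Bowtie 0.12.7, HTSeq and GRCh37. How HTSeq treated strand and overlaps is not given in the sources used here, so reads of overlapping antisense genes cannot be told apart. The authors deposited raw counts of reads for each Ensembl gene, and 59 of 36502 rows carried no annotation.

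EdgeR 4.0.16 (R 4.3.3, limma 3.58.1) was run on the deposited counts: filterByExpr, TMM scaling, robust quasi-likelihood fits with 1 coefficient per group over all 12 libraries (6 residual degrees of freedom), and Benjamini-Hochberg adjustment over all 17262 genes at a threshold of 0.05. The SE was the absolute log2 difference over the square root of F. The clone comparison averaged the 3 conditions. CPM was put on the log2 scale with prior count 2. The index set comparison added the set to the groups. Replicate numbers follow the index sets of the titles, and deviations from group means correlated within sets in each of 15 group pairs (0.415 to 0.858), so index sets were taken to pair libraries. Replicates were not duplicates (chi-square per degree of freedom 19.6 to 135).

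The members and lists were chosen with earlier results of these data known. Genes were named if called with or without the block (up to 10 per direction), among the 5 farthest from the member median, the 5 highest or lowest by level, the 10 most variable, or up to 4 per other list by smallest p. ASNS and MYC were given per library after their values were seen. Levels per length used coding length and GC from GENCODE 29 (76 genes matched by ID), in place of transcript length, which was judged unreliable. Starts came from RefSeq. Alternatives were RLE, upper-quartile and total-count scaling, DESeq2 1.42.0, other count filters (none, or 10 counts in every library), fits without robust dispersions or with only the groups compared, the block, each set alone, and each library left out. Fits with the block and a library left out, within 1 clone, or without both GFP libraries that stood apart were chosen after seeing the data, as were the views by chromosome and GC. Some genes are not reported here. Scripts were tested on simulated counts.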

Additional observations from a re-analysis of the deposited data

How the results depend on the processing

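Where the reported count of called ribosomal protein genes was above 0 (between clones and between index sets), 16 of 53 recomputed counts stayed within 1.5 times of it and 37 did not. Where it was 0, almost no gene of any kind was called, so a count that stayed at 0 says nothing about stability. Single libraries left out aside, 125 of 129 recomputed medians moved by less than the spread between replicates (0.042). Several reported medians were smaller in size than that spread, such as -0.0185 for GFP_tracer_Dam minus GFP_tracer and 0.014 for the induction interaction. A median that small could change sign and still count as unmoved, so this tally says nothing about the stability of such medians. Of 232 recomputed values of single genes 0 reversed, 10 lost the threshold and 39 gained it. Between the clones the count of 4 became 8 with total counts only, 2 with no filter on low counts, 13 with DESeq2, 15 with the replicate block, and 21 with the block and without both GFP libraries that stood apart. Over all genes the same settings called 1367, 1584, 2201, 3609 and 5855, against 1318. In uninduced cells it became 1 with the block and 2 with DESeq2 (327 and 288 over all genes, against 48), and the median became -0.0060 with total counts only. Between index sets the count of 11 became 3 with no filter and 19 without both GFP libraries (4202 and 6947 over all genes, against 4869). For VP16_tracer_Dam minus VP16_uninduced the count of 0 became 13 with the block and only that clone's libraries (1573 over all genes, against 0). The median of -0.11 for that comparison became -0.16 in index set 1 alone and -0.055 in index set 2 alone. VP16_tracer minus VP16_uninduced had a median of -0.10 in index set 1 alone. Adding fusion genes and retained paralogues outside the naming rule brought the mean share of counts from 3.37% to 3.5%. The cause of these changes was not tested, except that fewer libraries or genes entered some fits.

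Leaving out each library in turn moved the clone count between 2 and 8 (543 to 2221 over all genes), the index set count between 1 and 5, and the condition counts not at all. The medians ranged from -0.12 to 0.0092 for VP16_tracer minus VP16_uninduced, from -0.18 to -0.049 for VP16_tracer_Dam minus VP16_uninduced, from -0.026 to 0.11 for VP16_uninduced minus GFP_uninduced and from -0.031 to 0.088 for the induction interaction. With the replicate block, which pairs libraries by index set, the clone count ranged from 7 to 21 over these fits, with 8, 9 and 13 among the values. The medians with the block ranged from -0.11 to -0.00032 for VP16_tracer minus VP16_uninduced, from -0.18 to -0.056 for VP16_tracer_Dam minus VP16_uninduced, from -0.0094 to 0.0953 for VP16_uninduced minus GFP_uninduced, from -0.028 to 0.072 for the induction interaction (0.066 without GFP_tracer of index set 2), and from -0.072 to -0.010 for the Shield1 interaction (-0.071 without GFP_tracer_Dam of index set 1). They reached -0.11 for GFP_tracer minus GFP_uninduced and -0.14 for GFP_tracer_Dam minus GFP_uninduced. With the block, MRPL23 and RPS6KB2 also passed between uninduced cells (adjusted p 0.0413 and 0.0377), and ASCC3 passed between the clones (adjusted p 0.0208). With 2 libraries a group, small shifts could not be resolved gene by gene.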
